A study of Mus musculus with 11 samples.

Results

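The proteasome genes of whole mouse brain were followed over 11 arrays. They were taken by symbol, as the probe sets annotated to a single gene named Psma, Psmb, Psmc, Psmd, Psme, Psmf or Psmg plus a number. The rule found 58 probe sets of 46 genes among 12488 probe sets. The core particle held 22 of these probe sets (17 genes), the base 12 (9 genes), the lid 10 (8 genes), the activators 4 (3 genes) and the assembly chaperones 8 (7 genes). The other 2 probe sets matched by symbol and belong to no subunit. They were those of Psmc3ip, a protein of meiotic recombination, and Psme3ip1, which binds the activator Psme3. A further 2 probe sets that Psme2 shares with a near-identical gene were left out, and the inhibitor Psmf1 had none.

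The proteasome degrades proteins marked with ubiquitin. Its core is a barrel of stacked rings: outer rings of α subunits (Psma genes) form the gate, and inner rings of β subunits (Psmb genes) hold the cutting sites. On the barrel sits a regulatory particle, whose base holds the ATPases that unfold the substrate (Psmc genes) and whose lid removes the ubiquitin chain. In neurons the proteasome clears damaged proteins and takes part in the turnover of synaptic proteins. Interferon exchanges the catalytic β subunits for those of the immunoproteasome, which is known best from immune cells.

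Of the 11 C57BL/6J mice, 5 were null mutants that lack the β4 nicotinic receptor subunit, a part of ion channels gated by acetylcholine, and 6 were wild-type littermates. The null brains came from 2 males of 9 weeks and 3 females of 7, 8 and 8 weeks, and the wild-type brains from 4 males of 6, 6, 8 and 9 weeks and 2 females of 6 and 7 weeks. All mice were untreated, and each array measured 1 whole brain. Animal numbers carry the letters B4 for all 5 null and 3 wild-type mice and LT for the other 3 wild-type mice, which the labels do not explain. How the null allele was made is not given in the sources used here. The gene of the missing subunit, Chrnb4, had 0 probe sets annotated to it alone, so the genotype labels could not be checked on it. Signals are linear MAS5 intensities, a log2 difference of 1 is a doubling, and 48 probe sets of 41 genes were bright enough to be tested among 7453 tested in all.

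The arrays of the 2 male null brains stood apart from the rest. Their median signals were 58.3 and 56.3, against 43.6 to 49.75 on the other 9 arrays. The control ratio of 3′ to 5′ Gapdh signal, which reads how intact and evenly labelled the RNA was, stood at 0.859 and 0.798 there. A higher ratio means less signal from the 5′ end relative to the 3′ end. On this control the male null arrays thus had the most even 3′ and 5′ signal. Female null arrays gave 2.75, 2.20 and 3.58, and wild-type arrays ranged between 3.57 and 5.92. The same ratio for β-actin was 1.54, 1.33, 2.89, 3.34 and 3.97 in null brains and 3.59 to 5.45 in wild-type brains. Both ratios were lower in null brains (two-sided exact permutation test over 462 splits, p = 0.00433 for each, where the smallest possible is 0.00216). In males, the state of these arrays and the null genotype cannot be told apart. Among females the Gapdh ratio was also lower in every null brain than in the wild-type brains (3.91 and 3.81), while the β-actin ratios overlapped. The comparison within females is thus not free of this difference either. The male and interaction counts of the proteasome are therefore also given with the Gapdh ratio in the model. The differences with the smallest p over both sexes and for sex are also given without the male null brains. Most single male differences, and those of the ubiquitin and interferon lists, are given with neither check. Brain markers were present: the summed signal of 5 neuronal markers (Snap25, Syp, Eno2, Nefl, Stmn2) was 7990 to 9474 in null brains and 7122 to 9429 in wild-type brains.

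Over both sexes, the proteasome genes did not differ between null and wild-type brains by a margin that passed the test. In the limma model with sex as a covariate, 0 of the 48 proteasome probe sets reached an adjusted p of 0.05, beside 2 of all 7453 (0.0268%). At an unadjusted p under 0.05 there were 19 proteasome probe sets (39.6%), 12 with the higher level and 7 with the lower level in null brains, beside 23.1% of all tested probe sets. The median log2 difference (null minus wild-type) was 0.01 over the proteasome probe sets and 0.03 over all. Without wild-type brain 5, a female, 12 proteasome probe sets passed, 6 with the higher and 6 with the lower level in null brains. Without wild-type brain 3, also a female, 2 passed. The share of all tested probe sets that passed without either brain is not given here, so these counts cannot be read as particular to the proteasome.

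The smallest p over both sexes belonged to Psmc3, an ATPase of the base, on probe set 93734_i_at. Its signal was 265, 325, 142.5, 160.2 and 192 in null brains 1 to 5, against 91.6, 126, 142, 92.2, 124 and 74.6 in wild-type brains 1 to 6. Every null brain lay above every wild-type brain, by a narrow margin between the lowest null brain and the highest wild-type brain. This was the case for 1 of the 48 proteasome probe sets and for 0.59% of all tested. The log2 difference was 1.003 ± 0.24 (SE), with an adjusted p of 0.0852 in limma, and both other Psmc3 probe sets had overlapping groups.

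Psmc5, another base ATPase, had signals of 269 to 538 in null brains and 196 to 271 in wild-type brains, and a log2 difference of 0.75 ± 0.18 (SE, adjusted p = 0.0852 in limma). The next by p were Psmd13 (0.79), Psmb5 on 101558_s_at (0.77), Psmd4 (0.63), Psmd3 (0.82), Psmc1 (0.59), Psme1 (0.61), Psmc2 (0.37) and Psmd1 (-0.43), where each value is a log2 difference and the adjusted p lay between 0.124 and 0.161. Without the male null brains, which leaves the comparison within females, the log2 difference was 0.30 for Psmc3 on 93734_i_at and 0.23 for Psmc5. The next 8 then lay between -0.04 for Psmd13 and 0.09 for Psmc2, with the sign turned for Psmd13 (-0.04), Psmd3 (-0.03) and Psmd1 (0.05).

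The genotype difference within each sex was read from a model of 4 genotype and sex groups. In males, 25 of the 48 proteasome probe sets (52.1%) passed the test, from 24 genes, beside 32.6% of all tested probe sets. They moved in opposite directions: 12 probe sets (25%) were higher in male null brains, beside 17.8% of all tested, and 13 (27.1%) were lower, beside 14.8%. In the core, 2 rose and 7 fell of 17 tested probe sets. In the base and lid together, 9 rose and 3 fell of 19. Centring each array on its median signal lowered the median difference of all probe sets by 0.28 on the log2 scale. The split was then 10 higher and 17 lower, and 37.2% of all tested probe sets passed. With the Gapdh ratio as a covariate, 0 of the 48 and 0 of all 7453 passed. Of the 25 differences, 23 kept their direction and 10 of these were at least as large, such as Psma3 (-1.39, from -1.16). The other 15 were smaller or turned, such as Psma1 (-0.009, from -0.80), Psmb5 on 101558_s_at (0.30, from 1.43) and Psmd13 (0.28, from 1.53). The median SE was 0.64 with the ratio and 0.17 without it. The members that rose had mean wild-type signals of 80.7 to 447 and those that fell 164 to 2362, and over all called probe sets the medians were 108 for those that rose and 412 for those that fell.

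**Figure D1:**
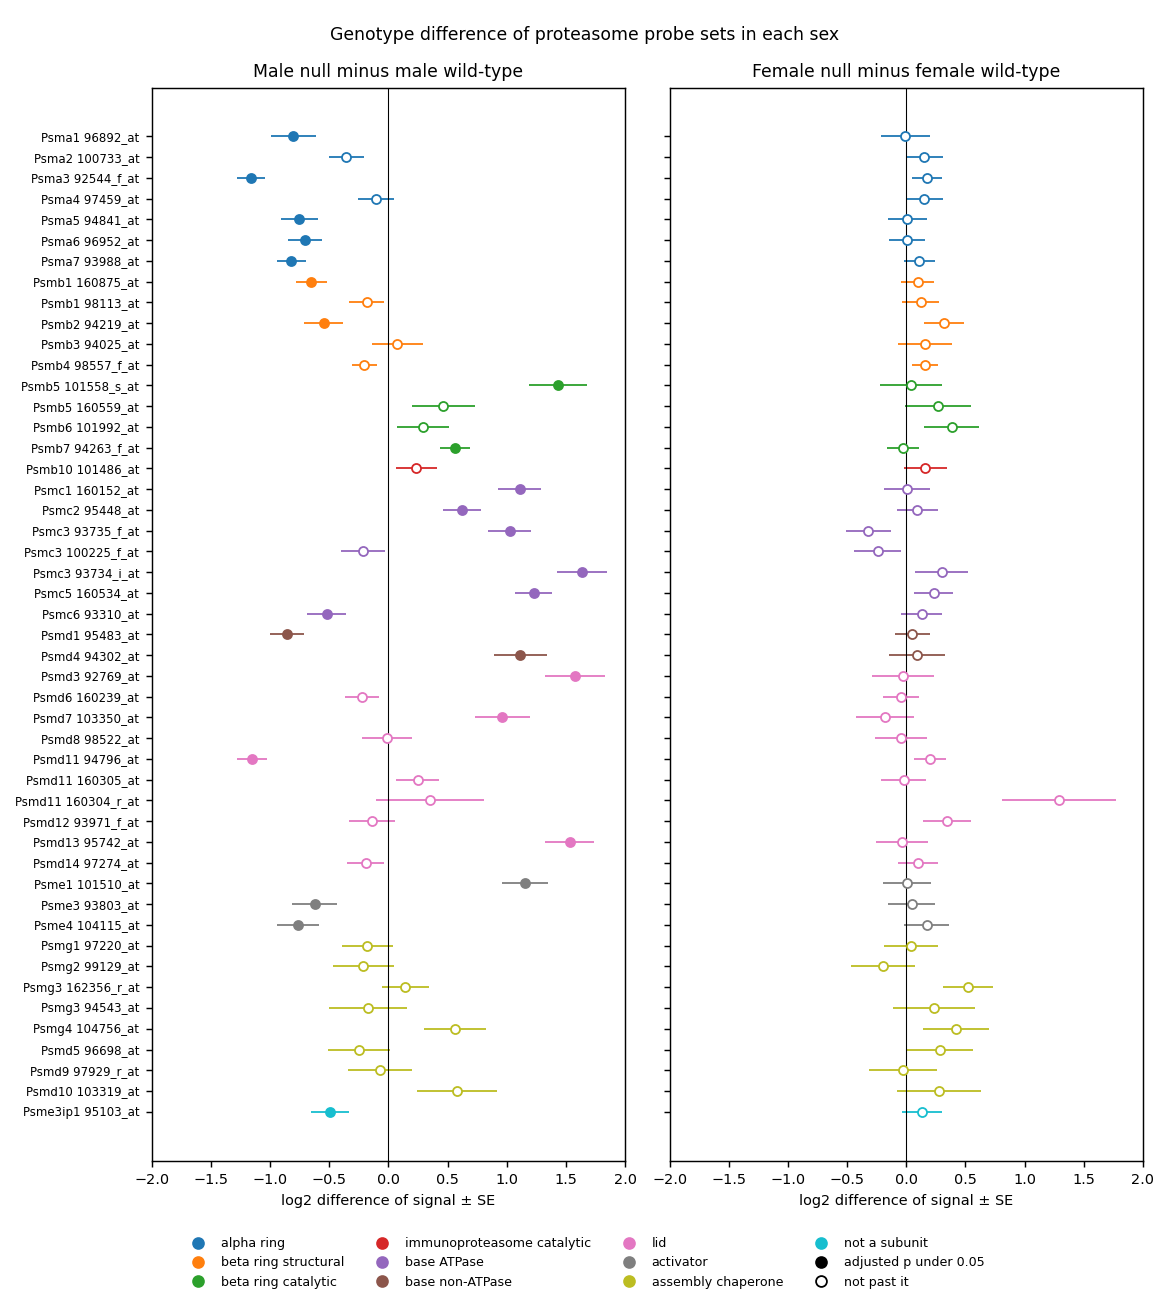
Log2 difference of signal with its SE for the 48 tested proteasome probe sets, male null minus male wild-type brains on the left and female null minus female wild-type brains on the right, coloured by part of the complex. Filled points passed an adjusted p of 0.05 in limma: 25 in males, 12 to the right of 0 and 13 to the left, and 0 in females.

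The outer ring of the core was lower in male null brains at 5 of its 7 genes, and higher at none. Over all tested probe sets, 14.8% were lower and 17.8% higher. Psma3, a subunit of this α ring, had a signal of 1119 and 1142 in male null brains, against 2578, 2539, 2395 and 2606 in male wild-type brains. The female null brains had 2332, 2262 and 2219, and the female wild-type brains 2305 and 1752. The 2 male null brains were below all 9 others, and the groups of females overlapped. The log2 difference in males was -1.16 ± 0.12 (SE, adjusted p = 3.28e-05 in limma). Psma7 followed the same pattern, with 480.4 and 452 in male null brains, against 801, 862, 843 and 791 in male wild-type brains, and a log2 difference of -0.82 ± 0.12 (SE, adjusted p = 3.51e-04 in limma).

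Psma1 had signals of 121 and 122.5 in male null brains, against 176, 195, 243 and 245.5 in male wild-type brains. Its call (log2 difference -0.80 ± 0.19, SE, limma adjusted p = 0.00722) was lost without null brain 1 (adjusted p = 0.0573) or null brain 2 (adjusted p = 0.0561). Psma5 (347.5 and 379 in male null brains, 668, 607, 543 and 637 in male wild-type brains) and Psma6 (898 and 1063 in male null brains, 1672, 1671, 1554 and 1491 in male wild-type brains) fell by 0.75 and 0.71 on the log2 scale (limma adjusted p = 0.00304 and 0.00257). The α ring genes that did not pass were Psma2 (-0.36 ± 0.15, SE, limma adjusted p = 0.08) and Psma4 (-0.11 ± 0.15, SE, adjusted p = 0.627). Over the 7 genes, the mean log2 signal relative to the wild-type mean was -0.66 and -0.57 in male null brains, between -0.07 and 0.02 in female null brains and between -0.29 and 0.09 in wild-type brains.

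The inner ring was divided between its structural and its catalytic subunits. Of the structural subunits, which carry no cutting site, Psmb1 on 160875_at had 1196 and 1203 in male null brains, against 2157, 1770, 1963 and 1685 in male wild-type brains, and fell by 0.65 on the log2 scale (SE 0.13, limma adjusted p = 0.00251). The other tested Psmb1 probe set, 98113_at, differed by -0.18 ± 0.15 (SE, limma adjusted p = 0.371) and did not pass. Psmb2 fell by 0.55 on the log2 scale, with 436 and 356 in male null brains and 494.5, 675, 554 and 595 in male wild-type brains (limma adjusted p = 0.0215). Without null brain 2 its log2 difference was -0.40 with a limma adjusted p of 0.219. Psmb3 (0.07) and Psmb4 on 98557_f_at (-0.20) did not pass, each value a log2 difference in males.

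None of the catalytic subunits fell. Psmb5, which carries the chymotrypsin-like site, had signals on 101558_s_at of 591 and 741 in male null brains, against 216, 398, 185 and 226.5 in male wild-type brains. Female null brains had 408, 351 and 361 and female wild-type brains 407 and 324, so that both male null brains stood above all others while the females overlapped. The log2 difference in males was 1.43 ± 0.25 (SE, adjusted p = 9.46e-04 in limma). On 160559_at, the other probe set of Psmb5, male null brains had 165 and 87.3 and male wild-type brains 99.6, 81.8, 82.8 and 85.3, a log2 difference of 0.46 ± 0.26 (SE, limma adjusted p = 0.203).

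Psmb7, with the trypsin-like site, had 564 and 582 in male null brains, against 378.5, 434, 374 and 366 in male wild-type brains, and rose by 0.57 on the log2 scale (limma adjusted p = 0.00454). Without null brain 2 its adjusted p was 0.0547. Psmb6, with the caspase-like site, did not pass: male null brains had 484 and 504 and male wild-type brains 325, 598, 395 and 345, which overlap. They differed by 0.29 ± 0.22 on the log2 scale (SE, limma adjusted p = 0.336).

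The immunoproteasome subunits Psmb8, Psmb9 and Psmb10 take the places of Psmb5, Psmb6 and Psmb7 after interferon. Only Psmb10 was bright enough for the test, at 251, 281, 278, 312.5 and 335 in null brains and 236, 265, 306, 228, 247 and 182 in wild-type brains. The groups overlapped, and the log2 difference over both sexes was 0.20 ± 0.13 (SE, limma adjusted p = 0.372). Psmb8 was dim, with 40, 31.9, 30.3, 31.2 and 41.7 in null brains and 7.4, 20.7, 21, 28.7, 29.4 and 12.5 in wild-type brains. Its 5 null brains lay just above its 6 wild-type brains, as for 2 of the 58 proteasome probe sets and 0.451% of all probe sets when none were filtered out. In that unfiltered fit the log2 difference was 0.86 with an unadjusted p of 0.0455 and a limma adjusted p of 0.284. Psmb9 stayed near the floor of 3.1 in both genotypes, at 6.26 ± 1.96 in null brains (SD, n = 5) and 6.67 ± 4.48 in wild-type brains (SD, n = 6).

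**Figure D2:**
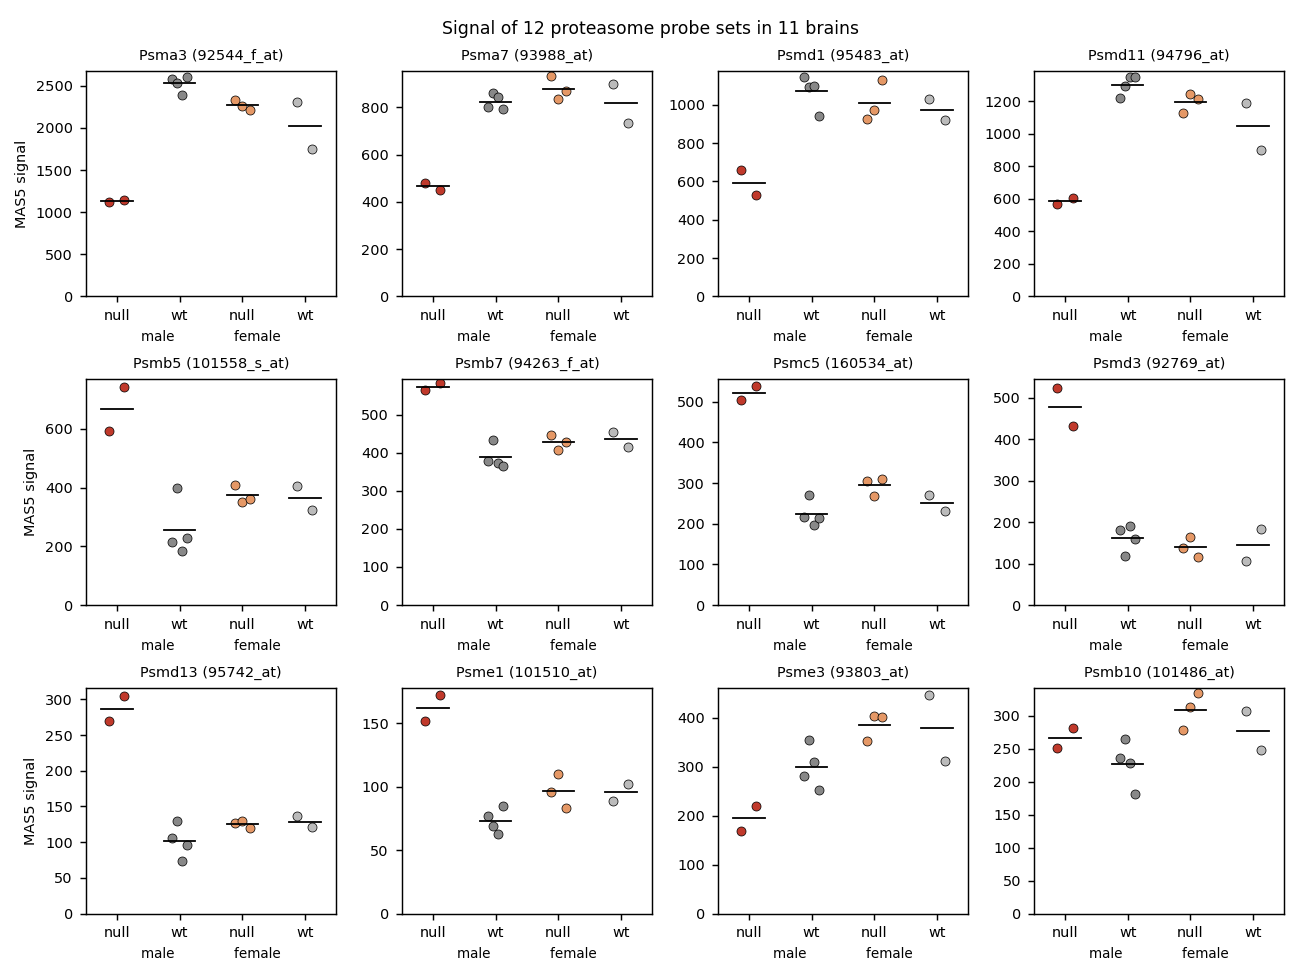
MAS5 signal (linear axis from 0) of 12 proteasome probe sets in each brain, 1 point per brain, with a line at the group mean; wt is wild-type. The male null brains lie below every other brain for Psma3, Psma7, Psmd1, Psmd11 on 94796_at and Psme3, above every other brain for Psmb5 on 101558_s_at, Psmb7, Psmc5, Psmd3, Psmd13 and Psme1, and among them for Psmb10.

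In the base, 5 of 7 tested ATPase probe sets, from 4 genes, rose in male null brains and 1 fell. Over all tested probe sets, 17.8% rose and 14.8% fell. Psmc5 had 505 and 538 in male null brains, against 217, 271, 196 and 213 in male wild-type brains, with 306, 269 and 309 in female null brains and 271 and 232 in female wild-type brains. The male null brains exceeded all others, and the log2 difference in males was 1.23 ± 0.16 (SE, adjusted p = 1.26e-04 in limma). Psmc1 had 515 and 457 in male null brains, against 208, 305, 207 and 195 in male wild-type brains, and rose by 1.11 on the log2 scale (limma adjusted p = 6.95e-04). Psmc2 rose by 0.62, with signals of 647 and 682.5 in male null brains and 341, 536, 429 and 440.0 in male wild-type brains. That call was lost without null brain 1 (limma adjusted p = 0.0584) or null brain 2 (adjusted p = 0.0926).

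Psmc3 rose on 2 of its 3 probe sets. Probe set 93734_i_at, the one with separate genotypes, differed by 1.64 ± 0.21 (SE, limma adjusted p = 1.41e-04) in males. Probe set 93735_f_at had 445 and 438.5 in male null brains, against 201, 299.8, 189 and 196 in male wild-type brains, a log2 difference of 1.02 ± 0.18 (SE). Psmc6 was the ATPase that fell, with 962 and 1046 in male null brains, against 1362, 1855, 1162 and 1467 in male wild-type brains, a log2 difference of -0.52 ± 0.17 (SE, limma adjusted p = 0.0287). The Psmc6 call was lost without wild-type brain 6 (adjusted p = 0.0517), null brain 1 (0.176) or null brain 2 (0.0952). Psmc4 was under the filter, at 17.9, 18.3, 28.1, 26.5 and 16.6 in null brains and 11.5, 5.8, 4.2, 27.5, 15.8 and 23.6 in wild-type brains.

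The base subunits without ATPase activity moved apart. Psmd4, a receptor for ubiquitin chains, had 606.5 and 661 in male null brains, against 293, 337, 386 and 191 in male wild-type brains, and rose by 1.11 on the log2 scale (limma adjusted p = 0.00227). Psmd1, a large scaffold of the base, had 658 and 527 in male null brains, against 1147, 1094, 1096 and 940.4 in male wild-type brains, and fell by 0.86 (limma adjusted p = 6.55e-04). For both genes the male null brains lay outside the range of all 9 other brains. Psmd2, the other scaffold, was near the floor, at 5.4, 3.4, 3.8, 22.1 and 4.5 in null brains and 6, 15.8, 6.9, 8.1, 5 and 4 in wild-type brains.

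The lid had the largest rises of the tested genes outside Psmc3. Psmd3, a structural subunit of the lid, had 523 and 431 in male null brains, against 180.3, 117, 191 and 159.7 in male wild-type brains, with 138, 164 and 114.5 in female null brains and 107 and 184 in female wild-type brains. The male null brains were far above every other brain, and the log2 difference in males was 1.58 ± 0.25 (SE, adjusted p = 5.23e-04 in limma). Psmd13 had 269 and 305 in male null brains, against 106.5, 129.6, 73.1 and 95.7 in male wild-type brains, a log2 difference of 1.53 ± 0.21 (SE, adjusted p = 1.86e-04 in limma). Psmd7, the partner of the deubiquitinase Psmd14, had 527 and 733 in male null brains, against 368, 400.4, 252 and 279 in male wild-type brains. It differed by 0.96 ± 0.23 (SE, limma adjusted p = 0.00742), and by 0.73 with an adjusted p of 0.121 without null brain 2.

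Among the lid probe sets with Psm symbols, Psmd11 on 94796_at was the only one that fell; the lid subunit Sem1, which the symbol rule leaves out, fell too and is described with the ubiquitin genes. Its signal was 566.5 and 605 in male null brains, against 1222, 1293, 1349 and 1346 in male wild-type brains, with 1127, 1242 and 1216 in female null brains and 1191 and 903 in female wild-type brains. Both male null brains were below all 9 others, and the log2 difference in males was -1.15 ± 0.13 (SE, adjusted p = 5.84e-05 in limma). The lid genes that did not pass in males were Psmd6 (-0.22), Psmd8 (-0.02), Psmd12 (-0.14) and Psmd14, the enzyme that removes the ubiquitin chain (-0.19), each value a log2 difference.

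Promoters are shown for the genes with the largest male differences in each direction, among those with a RefSeq window in GRCm38.p6. These were Psma3 and Psmd11, which fell, and Psmd13 and Psmb5, which rose. Each window is the 250 bases before an annotated transcript start, read 5′ to 3′ on the gene's strand. Capitals mark a match to TGANNNNGC on either strand, the core of the antioxidant response element that factors of the Nfe2l family bind. For Psmd11, Psmd13 and Psmb5 that start is the outermost one of the gene, and for Psma3 it lies 5340 bases inside the gene's outermost start.
Psma3, chr12:70974373-70974622, plus strand: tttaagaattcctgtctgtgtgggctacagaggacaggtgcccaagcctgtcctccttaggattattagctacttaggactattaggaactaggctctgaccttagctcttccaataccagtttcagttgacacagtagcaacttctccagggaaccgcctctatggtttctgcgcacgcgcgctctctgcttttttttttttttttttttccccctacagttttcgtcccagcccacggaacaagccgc
Psmd11, chr11:80428365-80428614, plus strand: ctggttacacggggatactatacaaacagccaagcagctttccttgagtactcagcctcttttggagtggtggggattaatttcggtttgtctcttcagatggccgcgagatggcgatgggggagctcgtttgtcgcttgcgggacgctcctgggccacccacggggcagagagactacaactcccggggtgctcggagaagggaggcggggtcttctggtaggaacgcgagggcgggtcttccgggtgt
Psmd13, chr7:140882144-140882393, plus strand: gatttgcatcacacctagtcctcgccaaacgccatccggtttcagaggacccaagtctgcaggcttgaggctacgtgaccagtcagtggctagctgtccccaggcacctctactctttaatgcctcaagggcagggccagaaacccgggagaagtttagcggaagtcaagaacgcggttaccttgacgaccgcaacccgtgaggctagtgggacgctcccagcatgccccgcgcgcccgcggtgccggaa
Psmb5, chr14:54617996-54618245, minus strand: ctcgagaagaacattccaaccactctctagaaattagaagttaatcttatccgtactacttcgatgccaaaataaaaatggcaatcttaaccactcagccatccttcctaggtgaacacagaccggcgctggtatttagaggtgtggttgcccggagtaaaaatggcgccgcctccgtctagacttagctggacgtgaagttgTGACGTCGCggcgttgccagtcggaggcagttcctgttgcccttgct
Of these windows, the Psmb5 promoter holds the match, starting 47 bases before that start. Among 37 proteasome genes with a window, 15 of 39 windows (38.5%) hold it, beside 35.2% of 32851 windows of all genes, so the match is about as frequent in both. CCAAT or its reverse was in 33.3% of proteasome windows and 33.8% of all windows. TATAAA or its reverse was in 10.3% of proteasome windows and 12.4% of all windows. Of the interferon motifs, TTCNNNGAA was in 2 proteasome windows (5.13%), beside 7.02% of all windows. The interferon-stimulated response element, searched as GAAA repeated with any 2 bases between, was in 3 proteasome windows (7.69%), those of Psmb3, Psmd4 and Psmd9, beside 2.98% of all windows. The motifs were searched on both strands without regard to overlap between them.

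Activators open the core without the ATPases. Psme1, which forms with Psme2 the ring that interferon induces, had 152 and 173 in male null brains, against 77.1, 68.7, 62.6 and 84.7 in male wild-type brains, a log2 difference of 1.15 ± 0.19 (SE, adjusted p = 7.97e-04 in limma). Psme3, which forms the nuclear activator, fell by 0.62 on the log2 scale, with 168 and 221 in male null brains and 281, 355, 309 and 252 in male wild-type brains (limma adjusted p = 0.0232). Psme4, a single large protein that caps the core, fell by 0.76, with 87 and 115 in male null brains and 142, 207, 172 and 166 in male wild-type brains (limma adjusted p = 0.00627). Without null brain 1 the adjusted p was 0.245 for Psme3 and 0.11 for Psme4.

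Of the assembly chaperones, 0 of 8 probe sets passed in males, beside 32.6% of all tested probe sets. Psmb10, the only tested immunoproteasome subunit, did not pass in males either (limma adjusted p = 0.322). Psmg1 with Psmg2 and Psmg3 with Psmg4 build the α ring, and Psmd5, Psmd9 and Psmd10 help to build the base. Their log2 differences in males lay between -0.25 for Psmd5 and 0.58 for Psmd10, whose SE was 0.34. The smallest adjusted p among them was 0.121, for Psmg4 (0.56 ± 0.26, SE, limma). Psme3ip1, which belongs to no part of the complex, fell by 0.50 (limma adjusted p = 0.0318). That call was lost without wild-type brain 1 (adjusted p = 0.0527), wild-type brain 6 (0.0512), null brain 1 (0.195) or null brain 2 (0.102).

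Averaged over the genes of each part, both male null brains stood above the wild-type range in 3 of 9 parts, below it in 2, and not both outside it in the other 4. Relative to the wild-type mean, the 5 tested base ATPase genes were at 0.60 and 0.62 log2 in male null brains, 0.25, 0.18 and 0.17 in female null brains and between -0.25 and 0.29 in wild-type brains. The 3 catalytic β genes were at 0.59 and 0.73 in male null brains, 0.47, 0.20 and 0.36 in female null brains and between -0.28 and 0.37 in wild-type brains. For the 4 structural β genes the values were -0.25 and -0.33 in male null brains, 0.07, 0.10 and 0.14 in female null brains and between -0.16 and 0.18 in wild-type brains. These means describe the brains, and each gene enters through its brightest probe set. The lid mean was 0.24 and 0.34 in male null brains, -0.09 to 0.13 in female null brains and -0.07 to 0.09 in wild-type brains. The α ring mean was -0.66 and -0.57 in male null brains, -0.07 to 0.02 in female null brains and -0.29 to 0.09 in wild-type brains. Both male null brains were inside the wild-type range for the base non-ATPase genes (0.17 and 0.07 against -0.41 to 0.21), the assembly chaperones (0.14 and 0.13 against -0.11 to 0.17) and Psmb10 of the immunoproteasome (0.06 and 0.22 against -0.41 to 0.35). For the activators, null brain 1 was below that range at -0.30 and null brain 2 inside it at 0.03, against -0.14 to 0.17 in wild-type brains.

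**Figure D3:**
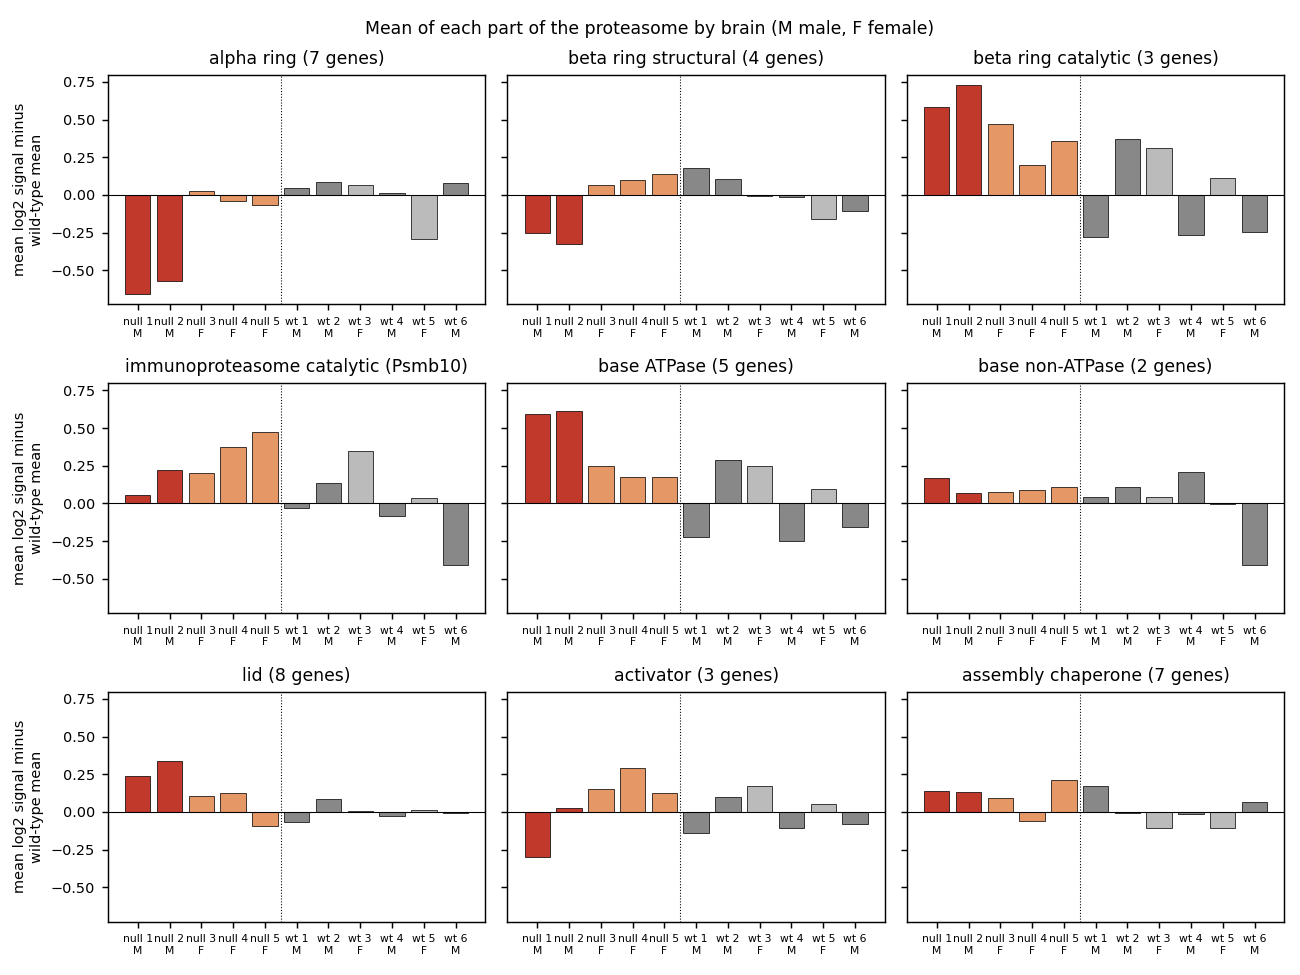
Mean log2 signal of the genes of each part of the proteasome in each brain, minus the mean of the wild-type brains, 1 bar per brain, null brains left of the dotted line and wild-type brains (wt) right of it; M is male and F is female. The male null brains (dark red) are at -0.66 and -0.57 for the α ring and at 0.60 and 0.62 for the base ATPases, while the female null brains are between -0.07 and 0.02 and between 0.17 and 0.25.

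The spread shows the same split by array. Both male null brains lay above the other 9 brains for 12 of the 48 proteasome probe sets, beside 20.7% of all tested probe sets, and below them for 13, beside 16.5%. The median SD of log2 signal over all 11 brains was 0.33 for the proteasome and 0.33 for all tested probe sets. Over the 9 brains other than the male null brains it was 0.25 for the proteasome and 0.27 for all. In wild-type brains alone the coefficient of variation had a median of 17.7% over proteasome probe sets, between 4.68% for Psmb4 on 98557_f_at and 44.8% for Psmd11 on 160304_r_at, beside a median of 19.5% over all.

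Between female null and female wild-type brains no proteasome probe set passed the test. In limma there were 0 of the 48, beside 0% of all tested probe sets, and the smallest adjusted p among them was 0.995. At an unadjusted p under 0.05 there were 2, beside 4.13% of all: Psmd11 on 160304_r_at (1.29 ± 0.48, SE, unadjusted p = 0.0184) and Psmg3 on 162356_r_at (0.52 ± 0.21, SE, unadjusted p = 0.0278). On the first of these, female null brains had 50.9, 65.3 and 96.6 and female wild-type brains 15.2 and 51.5, and the lower wild-type value was the lowest of all 11 brains. The log2 difference was above 0 for 36 of the 48 (75%), beside 53.1% of all, with a median of 0.11 over the proteasome and 0.02 over all. The female wild-type group has 2 brains, of which wild-type 5 was the lowest of all wild-type brains for the α ring (-0.29 against a range of 0.01 to 0.09).

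The genotype difference itself differed between the sexes for 20 of the 48 proteasome probe sets (41.7%), beside 15.9% of all tested. All 20 are among the 25 that passed in males, and both tests use the male null brains. The smallest p were those of Psma3 (1.34 ± 0.18, females minus males, SE, limma adjusted p = 8.90e-04), Psmd11 on 94796_at (1.36 ± 0.19, adjusted p = 0.00114) and Psma7 (0.93 ± 0.18, adjusted p = 0.00553). Next came Psmd13 (-1.57 ± 0.30, adjusted p = 0.00566), Psmc3 on 93735_f_at (-1.34 ± 0.26, adjusted p = 0.00592) and Psmd1 (0.91 ± 0.20, adjusted p = 0.0112). A positive value here belongs to a gene that was lower in male null brains, and a negative value to one that was higher. Leaving out single brains changed the count: 9 passed without wild-type 5, 12 without null 1 and 8 without null 2, and 5 of the 20 passed whichever brain was left out. The share of all tested probe sets that passed in those fits is not given here. With the Gapdh ratio as a covariate, 0 passed, and all 20 values kept their direction. Of these, 8 were at least as large with it, such as Psma3 (1.52), Psma5 (1.28) and Psma6 (1.28). The other 12 were smaller, such as Psmd7 (-0.04, from -1.14), Psme1 (-0.13, from -1.15) and Psmd13 (-0.56, from -1.57). The median SE was 0.57 with the ratio and 0.25 without it.

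No proteasome gene passed the test for sex over both genotypes. In limma, 0 of 48 passed for female minus male, beside 0% of all tested, and 6 (12.5%) had an unadjusted p under 0.05, beside 12.4% of all. Psme3 had 311 to 448 in female brains and 168 to 355 in male brains, a log2 difference of 0.65 ± 0.17 (SE, adjusted p = 0.261). The other log2 differences were -0.95 for Psmd3, 0.42 for Psma7, 0.36 for Psmc3 on 100225_f_at, -0.57 for Psmd10 and -0.44 for Psmb5 on 160559_at, with adjusted p of 0.293 to 0.388. Without wild-type 5, 2 passed, Psme3 (0.84) and Psmd3 (-1.31), each a log2 difference. Without the male null brains the differences were smaller for Psmd3 (-0.18), Psme3 (0.33), Psmd10 (-0.42) and Psmb5 (-0.34), about as large for Psmc3 (0.37), and -0.02 for Psma7.

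Probe sets of one gene did not always move together. For Psmd11, 94796_at fell in male null brains while 160305_at (0.25 ± 0.18, SE) and 160304_r_at (0.35 ± 0.45, SE) did not pass and had differences above 0. For Psmc3, 100225_f_at differed by -0.22 ± 0.19 (SE) while both others rose. Of the 8 proteasome genes with several probe sets, 5 had more than 1 tested. Only for Psmg3 did all tested probe sets lie on the same side of the threshold, with 0.14 and -0.18 in males, neither passing. In the naming of these arrays a suffix such as _f_at, _s_at, _i_at or _r_at marks a probe set that met fewer of the design rules, and some of these share probes with other transcripts. The signal of such a probe set, including those of Psma3, Psmb5, Psmb7 and Psmc3 above, may hold more than the named gene.

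**Figure D4:**
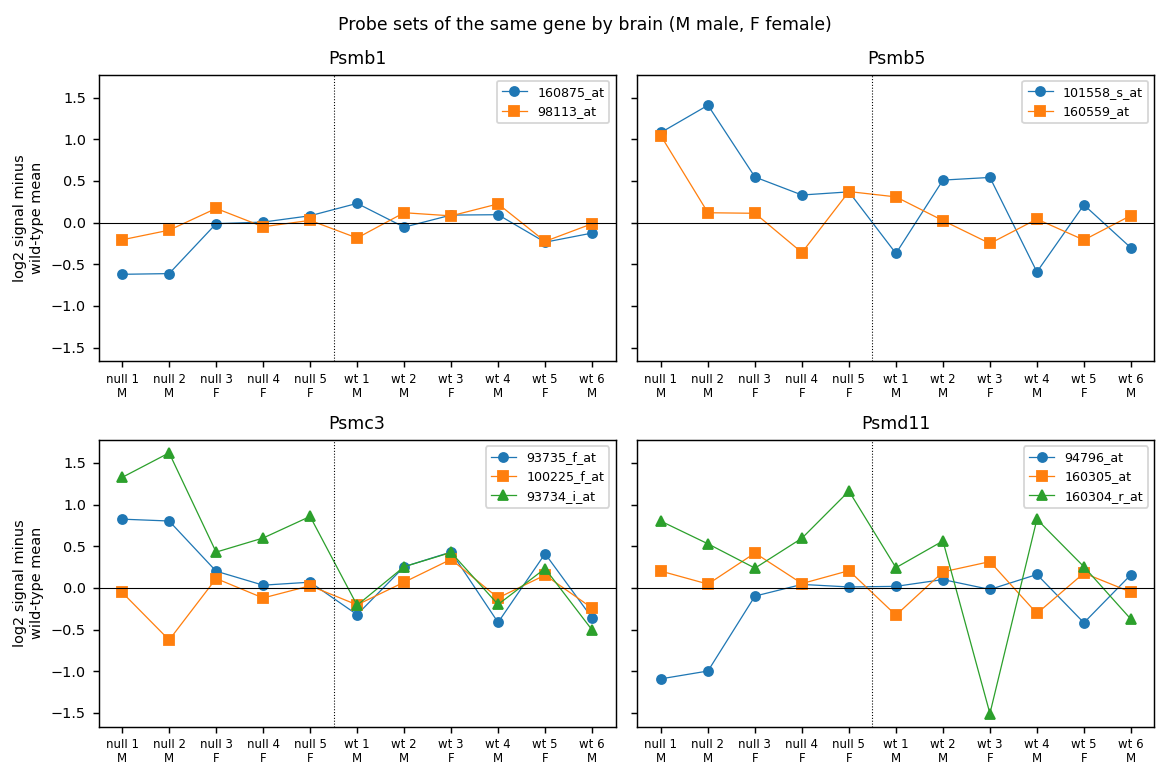
Log2 signal minus the mean of the wild-type brains for every tested probe set of Psmb1, Psmb5, Psmc3 and Psmd11 in each brain, null brains left of the dotted line; lines only join the points of 1 probe set. In the male null brains (null 1 and null 2) Psmd11 on 94796_at is below the other 9 brains, and its other probe sets are not.

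Of the 58 proteasome probe sets, 10 were under the signal filter, and for 5 genes (Psmb8, Psmb9, Psmc4, Psmd2 and Psmc3ip) no probe set was tested. The remaining 5 dim probe sets belong to Psmb1, Psmb4 (2 probe sets), Psmc5 and Psme1, which each have a brighter one. In whole tissue, fewer cells of a type and less RNA per cell cannot be told apart for any of these genes.

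A wider list held ubiquitin genes, factors that bring substrates to the proteasome, and a few that act on the proteasome itself, such as Sem1, the assembly factor Pomp and the transcription factors Nfe2l1 and Nfe2l2. Of the 52 listed symbols, some of which name the same gene, 31 were tested, and 0 passed for genotype over both sexes. In males 5 rose and 8 fell (41.9%), beside 32.6% of all tested. Among those that rose were Bag6, a chaperone of mislocalised proteins (2.07 ± 0.18, SE), Uchl1, an abundant neuronal ubiquitin hydrolase (1.38 ± 0.18) and Nfe2l1, a transcription factor that acts on proteasome genes (0.91 ± 0.14). Among those that fell were Ube2r2, a ubiquitin-conjugating enzyme (-1.01 ± 0.12), and Sem1, a small subunit of the lid (-0.71 ± 0.13), each value a log2 difference in males. Nfe2l2 (-0.18 ± 0.19, SE) and Pomp (0.395 ± 0.32) did not pass in males. Over both sexes the smallest p was that of Ube2h, another conjugating enzyme, with 245 ± 47.4 in null brains (SD, n = 5) and 175 ± 36.3 in wild-type brains (SD, n = 6; limma adjusted p = 0.0852).

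Of 22 listed interferon and antigen presentation genes 11 were tested, and 0 passed for genotype over both sexes. In males Tapbp (1.41 ± 0.22, SE) and H2-D1 (0.73 ± 0.25) rose and B2m (-0.89 ± 0.20) and Irf8 (-0.78 ± 0.23) fell, each value a log2 difference. These 4 are 36.4% of those tested, beside 32.6% of all tested probe sets, so the share is near that of all genes. The summed signal of 5 microglial markers, all over the filter, was 1506 and 1724 in male null brains, 866 to 1724 over all null brains and 755 to 1143 in wild-type brains. Those of 5 astrocyte markers were 4905 to 6146 in null brains and 3700 to 5354 in wild-type brains, and those of 4 oligodendrocyte markers 5257 to 5991 in null brains and 4960 to 7378 in wild-type brains. Summed markers of the choroid plexus (Ttr and Kl) were 609.8 and 831 in male null brains, 609.8 to 1375 over all null brains and 963 to 1705 in wild-type brains. Erythroid markers (Hba-a1 and Alas2) summed to 2159 and 2191 in male null brains, 2159 to 5716 over all null brains and 2355 to 6073 in wild-type brains. The lymphocyte markers Cd3e, Cd3g and Cd79a were all under the filter. Microglial markers thus were above, and choroid plexus and erythroid markers below, the wild-type range in both male null brains. The part of these cells in the proteasome differences was not tested.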

How the data were processed

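Total RNA of 11 whole brains was measured, 1 array per mouse. The deposited intensities, 1 linear value per probe set and array, were made by the authors with MAS5 per the submitters' processing notes, whose version and settings are not given in the sources used here. All arrays had been scaled to the same mean signal (150.1 once the outer 2% at either end is trimmed). Genes were named from the platform annotation, in which 10855 probe sets have 1 gene, 396 several and 1237 none. The proteasome members, the lists and the tests were chosen with earlier results of these data known.

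Deposited intensities under 3.1, the 10th percentile, were raised to it and put on a log2 scale, so differences of dim probe sets are understated. Between 7.76% and 11.9% of an array's values were at that floor. Probe sets with a mean log2 signal under 4.69 (a signal of 25.8, the 40th percentile) were not tested, and the 66 controls were left out. limma 3.58.1 in R 4.3.3 (lmFit, eBayes with trend, Benjamini-Hochberg over 7453 probe sets, two-sided, threshold 0.05) gave the genotype difference with sex as a covariate, the sex difference with genotype as a covariate, and, from 4 genotype and sex groups, the difference within each sex and the interaction. The number of arrays limits the precision, and 2 male null brains stand against 4 male wild-type brains.

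Named are members past the threshold, the 10 smallest p for genotype, the 6 for sex and the 6 for the interaction, catalytic subunits, activators, and genes with several probe sets. On simulated data with 200 changed probe sets among 7453, 80% of 2-fold changes were recovered for genotype (9 false of 185 calls), 57% for males (8 of 153), 22% for the interaction (5 of 100) and 76% for sex (7 of 176), with 0 calls where nothing changed. The simulated noise was independent between probe sets, with no shift shared by the probe sets of an array. These counts therefore cannot show how many male or interaction calls such a shift would give. Promoter windows are RefSeq's on GRCm38.p6, found for 37 of 44 subunit and chaperone genes. The alternatives were quantile normalization, median centring, other floors and filters, further covariates, the letters of the animal numbers (B4 or LT) as a block, eBayes without trend, and leaving out brains.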

Additional observations from a re-analysis of the deposited data

Results flagged for a closer look

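The genotype difference differed between females and males for 20 proteasome probe sets (limma interaction, adjusted p under 0.05), and all of these values rest on the 2 male null brains. The values are log2 differences, females minus males. They were positive for Psma3 (1.34), Psma5 (0.76), Psma6 (0.71) and Psma7 (0.93) of the α ring, Psmb1 on 160875_at (0.75) and Psmb2 (0.87) of the β ring, Psmd1 of the base (0.91), Psmd11 on 94796_at of the lid (1.36) and the activator Psme4 (0.94). Negative values were found for the catalytic subunits Psmb5 on 101558_s_at (-1.40) and Psmb7 (-0.59), and for the base subunits Psmc1 (-1.11), Psmc3 on 93735_f_at (-1.34) and 93734_i_at (-1.34), Psmc5 (-0.997) and Psmd4 (-1.02). The others were negative in the lid, at Psmd3 (-1.61), Psmd7 (-1.14) and Psmd13 (-1.57), and at the activator Psme1 (-1.15).

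A single brain lay far from the others of its genotype in 4 of 96 groups of 5 or 6 brains, by Dixon's criterion, which chance meets in about 5 of 100 groups. Psmg2, an assembly chaperone, had a signal of 76.5 in null brain 1, and the next null brain had 105.3. Wild-type brain 5, a female of 6 weeks, was the lowest wild-type brain in the other 3. Its signal was 1752 for Psma3 (next 2305), 902.8 for Psmd11 on 94796_at (next 1191) and 23 for Psmd10 (next 44).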

How the results depend on the processing

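In males, 19 to 26 proteasome probe sets passed when single brains were left out, and 22 to 27 passed under the other settings apart from the Gapdh ratio. With that ratio as a covariate 0 passed in males and 0 for the interaction. For the interaction, 8 of the 20 differences were at least as large with it (Psma3 1.52, Psma5 1.28 and Psma6 1.28 among them). The other 12 were smaller (Psmd7 -0.04, Psme1 -0.13 and Psmd13 -0.56 among them). The median SE was 0.57, against 0.25 without it. Of the 25 male calls, 16 passed whichever brain was left out, and the 9 that did not had adjusted p of 0.0512 to 0.245 there (limma). Quantile normalization kept 24 of them and median centring 23, all in the same direction, and 25 were kept with the number letters as a block, 25 within B4 numbers and 22 with age as a covariate. For the interaction the count was 12 within B4 numbers, 13 with eBayes without trend, and 8 to 21 without single brains. Over both sexes 0 to 12 passed for genotype and 0 to 2 for sex without single brains, and 0 under the other settings. In males 34.1% of all tested probe sets passed with quantile normalization and 37.2% with median centring. For fits without single brains the share of all tested probe sets is not given here, so their counts cannot be set against it. The median genotype difference of the proteasome was -0.17 with median centring, 0.13 with the Gapdh ratio and 0.11 without the male null brains. It was -0.02 to 0.08 without single brains.

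Sign changes are listed here for the members named by smallest p for genotype or sex, and for the male calls. With the Gapdh ratio the genotype difference turned its sign for Psmd13 (-0.34), Psmb5 (-0.23), Psmd3 (-0.18), Psmc1 (-0.13), Psme1 (-0.26) and Psmd1 (0.22). The male difference turned for Psmd7 (-0.41) and Psme1 (-0.12). Without the male null brains the genotype difference turned for Psmd13 (-0.038), Psmd3 (-0.029) and Psmd1 (0.049), and the sex difference for Psma7 (-0.020). The lists are not complete for the proteasome, as the genotype difference of other probe sets turned too. Psma3 went from -0.53 to 0.28 with the Gapdh ratio and to 0.18 without the male null brains. Psmc3 on 93735_f_at went from 0.39 to -0.51 and to -0.32 in the same settings. The cause was not tested, beyond that these settings leave out the male null brains or hold a covariate that is lowest in them. No paired analysis was possible because no label pairs a null with a wild-type mouse. The lower male counts without null 1 or null 2 come from fits with 1 male null brain, assumed to vary like the other groups.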
